A study of Rattus norvegicus with 9 samples.

Results

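Skeletal muscle myosins were followed in bulk poly(A) RNA sequencing of rat femur. The genes were chosen by symbol, as 10 named genes of the muscle thick filament: the heavy chains Myh1, Myh2, Myh4 and Myh7, the light chains Myl1, Myl2, Myl3 and Mylpf, and the myosin-binding proteins Mybpc1 and Mybpc2. Of these, 8 had a row among the 32623 gene rows of the deposited table; Myh1 and Myh2 had no row under those symbols and were not analysed here. Myh4, Myl1, Mylpf and Mybpc2 were taken as the fast fibre genes and Myh7, Myl2, Myl3 and Mybpc1 as the slow fibre genes.

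The libraries came from Sprague-Dawley rats labelled wild type, with 3 libraries in each of 3 groups. Control rats were normal animals, ovariectomized rats had lost their ovaries and with them the main source of oestrogen, and treated rats received the herb Desertliving Cistanche. By the series title the herb was given to rats without ovaries, a model of osteoporosis after menopause; the sample labels themselves name only the herb, and the sources used here give no age, dose or length of treatment. The labels name the femur as the tissue and do not state whether the 3 libraries of a group are separate animals. The p-values then measure only how far these samples spread, which may be technical.

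Myosin is the motor protein of muscle. A heavy chain carries the head that binds actin and splits ATP and the tail that assembles into the thick filament, and each head is stiffened by an essential and a regulatory light chain. Fibres are typed by the heavy chain they make: Myh7 marks slow oxidative fibres, and Myh2, Myh1 and Myh4 mark increasingly fast fibres, Myh4 being typical of rodent fast muscle. The light chains and the myosin-binding proteins follow the same division. Myl1 and Mylpf are the fast essential and regulatory light chains and Mybpc2 is the fast myosin-binding protein C, while Myl3, Myl2 and Mybpc1 are the slow counterparts. Myh7, Myl2 and Myl3 are also made in the heart ventricle, and Mybpc1 is made in fast fibres as well. Skeletal muscle attaches to the outer surface of the femur, and bone and marrow cells make non-muscle myosins instead.

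In rodents the fast heavy chain genes lie side by side on 1 chromosome. In RefSeq (build GRCr8) the order of neighbours on rat chromosome 10 was Myh3, Myh2, Myh1, Myh4, Myh8 and Myh13. The windows of 250 bases upstream of the RefSeq start of Myh2, Myh1 and Myh4 are shown because these 3 fast genes are neighbours and share sequence there, while only Myh4 had a row in the deposited table. Capitals mark the longest run of bases that all 3 windows hold and every TATAAA on the strand shown, 5′ to 3′. The windows are chr10:52355489-52355738, chr10:52384662-52384911 and chr10:52421898-52422147 on the plus strand of GRCr8.
Myh2: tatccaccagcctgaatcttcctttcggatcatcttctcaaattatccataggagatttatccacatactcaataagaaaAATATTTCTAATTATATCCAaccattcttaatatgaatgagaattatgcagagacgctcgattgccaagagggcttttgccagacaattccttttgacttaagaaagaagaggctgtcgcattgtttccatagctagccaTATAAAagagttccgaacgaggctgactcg
Myh1: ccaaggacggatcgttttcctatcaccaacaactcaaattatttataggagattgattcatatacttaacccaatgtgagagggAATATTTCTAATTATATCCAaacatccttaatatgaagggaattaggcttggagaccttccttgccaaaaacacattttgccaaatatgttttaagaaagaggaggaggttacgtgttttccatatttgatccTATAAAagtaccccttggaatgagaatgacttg
Myh4: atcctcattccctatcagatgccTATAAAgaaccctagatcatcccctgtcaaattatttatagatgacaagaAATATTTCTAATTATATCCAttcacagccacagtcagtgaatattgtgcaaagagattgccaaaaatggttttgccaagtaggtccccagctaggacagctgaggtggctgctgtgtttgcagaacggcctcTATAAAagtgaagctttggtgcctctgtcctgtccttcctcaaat
The shared run, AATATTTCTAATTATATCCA, was 20 bases long and began 170 bases upstream of the start in Myh2, 166 in Myh1 and 177 in Myh4. Searched on both strands, it was present in 5 of 33469 RefSeq windows of the same length (0.0149%), namely 1 window each of Myh1, Myh2 and Myh4 and, on the opposite strand, 2 windows of LOC102555216. The motif TATAAA began 30 bases upstream in Myh2, 33 in Myh1, and 45 and 227 in Myh4; 12.9% of all windows held it on either strand. A match of letters is a description of the sequence and shows no bound factor.

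For comparison, the window of the slow light chain gene Myl3 (chr8:119616844-119617093, plus strand, GRCr8) is shown with other motifs in capitals. These are CANNTG (the E box that myogenic factors bind), CATTCC or its reverse complement GGAATG (the TEAD motif), and the CArG box, the motif of serum response factor.
Myl3: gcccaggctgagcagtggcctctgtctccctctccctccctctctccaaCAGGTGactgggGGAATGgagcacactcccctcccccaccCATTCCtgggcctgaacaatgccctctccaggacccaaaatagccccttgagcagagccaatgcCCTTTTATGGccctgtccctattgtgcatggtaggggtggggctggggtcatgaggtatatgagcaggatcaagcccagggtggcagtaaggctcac
The CArG box began 97 bases upstream of the start, and 1.5% of all windows held one. The motif CATTCC was present at 2 places, on opposite strands, against 12.1% of windows that held any. The only CANNTG began 201 bases upstream, and 65.5% of windows held at least 1. These motifs were not particular to slow genes. The fast Myh4 window above, where they are not capitalized, held CANNTG 235 and 81 bases upstream, CATTCC 245 and a CArG box 118. The windows of the slow genes Myh7 and Mybpc1 held CANNTG but no CATTCC on either strand and no CArG box. RefSeq windows matched 8 of the 10 genes by symbol. Mylpf and Myl2 had no entry.

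The 9 libraries held 54992823 to 66531156 counts. Of the rows, 13886 had a mean of at least 1 FPKM (fragments per kilobase of transcript, scaled to the mapped fragments of the library) and were tested. All 8 measured myosin genes were among them. Bone markers were present in every library, with Col1a1 at 174 to 1057 FPKM and Bglap (osteocalcin) at 126 to 870 FPKM. A list of 10 skeletal muscle fibre markers with a row summed to 182 to 601 FPKM in controls, 609 to 2951 FPKM in ovariectomized rats and 460 to 950 FPKM in treated rats. In bulk samples, fewer muscle fibres and less RNA per fibre cannot be told apart. The 7 heart muscle markers summed to 1.22 to 4.30 FPKM in controls, 4.11 to 22.4 FPKM in ovariectomized rats and 2.15 to 6.02 FPKM in treated rats. Of these, Nppa, Nppb and Myl7 had 0 counts in all 9 libraries, Tnni3 at most 36 and Tnnt2 at most 55, while Myl4 had 39 to 202 counts and Myh6, described below with Myh7, 23 to 6994 counts.

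The row named Myh4 (ENSRNOG00000049695, chromosome 10, 53713938 to 53848347, plus strand, in the coordinates of the deposited table, for which the sources used here give no build) was wider than 1 heavy chain gene. It spanned 134410 bases and listed 6 transcripts. The ratio of its counts to its FPKM implied a transcript length of 18.9 kb, 3.06 times the 6.18 kb of Myh7, while Myh3 and Myh6 implied 6.30 kb and 6.29 kb. The row also overlapped that of Myh8, which began at 53818818, and Myh1, Myh2 and Myh13 had no row of their own under those symbols. Whether reads of the neighbouring fast heavy chains were counted in this row was not tested. It is therefore read as a fast heavy chain row, called Myh4 as in the table, with its FPKM given per 18.9 kb.

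The fast heavy chain row was measured at 5.44, 12.1 and 15.0 FPKM in control replicates 1, 2 and 3. It was at 20.7, 40.0 and 71.2 FPKM in the ovariectomized replicates and at 21.7, 14.3 and 30.3 FPKM in the treated replicates. Every ovariectomized library was above every control library, and the treated libraries overlapped both other groups. Counts behind these values ran from 6458 to 85830, so counting error was small beside the spread between libraries.

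Myl1 (ENSRNOG00000013262, chromosome 9, 73937823 to 73958480, minus strand), the fast essential light chain, was at 26.5, 49.4 and 82.7 FPKM in controls. The ovariectomized libraries were at 73.7, 168 and 281 FPKM and the treated libraries at 88.3, 53.6 and 90.4 FPKM. The highest control lay above the lowest ovariectomized library, so these groups overlapped. Mylpf (ENSRNOG00000017645, chromosome 1, 198655742 to 198658583, plus strand), the fast regulatory light chain, was the most abundant of the 8 per length. It was at 56.1, 91.8 and 144 FPKM in controls, 127, 260 and 412 FPKM in ovariectomized rats and 152, 98.6 and 161 FPKM in treated rats. Its order of libraries was that of Myl1, and the Mylpf to Myl1 ratio of FPKM stayed between 1.47 and 2.12 in the 9 libraries.

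Mybpc2 (ENSRNOG00000019627, chromosome 1, 100506704 to 100530183, minus strand), the fast myosin-binding protein, was the lowest fast gene. Its levels were 3.35, 5.04 and 8.40 FPKM in controls, 8.89, 11.9 and 25.3 FPKM in ovariectomized rats and 8.69, 7.49 and 9.35 FPKM in treated rats. All ovariectomized libraries were above all controls, by a narrow margin between control replicate 3 and ovariectomized replicate 1. The treated libraries lay close together and overlapped both groups.

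Myh7 (ENSRNOG00000016983, chromosome 15, 33634422 to 33656089, minus strand), the slow heavy chain, ranged far more widely. It was at 0.644, 28.0 and 9.73 FPKM in controls, 14.9, 51.1 and 169 FPKM in ovariectomized rats and 19.4, 6.58 and 31.8 FPKM in treated rats. Control replicate 1 stood far below the other libraries with 250 counts, and ovariectomized replicate 3 far above them with 66578 counts. Control replicate 2 was above ovariectomized replicate 1, so the groups overlapped.

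Myl3 (ENSRNOG00000020955, chromosome 8, 119030875 to 119036996, plus strand), the slow essential light chain, followed the same order at the extremes. It was at 1.33, 36.3 and 21.4 FPKM in controls, 20.1, 71.4 and 238 FPKM in ovariectomized rats and 27.5, 10.1 and 47.5 FPKM in treated rats. Mybpc1 (ENSRNOG00000056493, chromosome 7, 29086156 to 29171783, minus strand), the slow myosin-binding protein, was at 0.729, 16.1 and 6.25 FPKM in controls. Its levels were 10.3, 42.6 and 94.9 FPKM in ovariectomized rats and 16.7, 8.15 and 29.5 FPKM in treated rats. For both genes control replicate 1 was lowest and ovariectomized replicate 3 highest, and all 3 groups overlapped.

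Myl2 (ENSRNOG00000030848, chromosome 12, 39951987 to 39958239, minus strand), the slow regulatory light chain, had counts of 0, 0 and 120 in controls. It had 0, 367 and 1253 counts in ovariectomized rats and 133, 0 and 348 counts in treated rats. The 4 libraries listed at 0 held its partner Myl3 at 79 counts (control replicate 1), 2140 counts (control replicate 2), 1209 counts (ovariectomized replicate 1) and 586 counts (treated replicate 2). In the other 5 libraries Myl2 ran at 0.0878 to 0.128 counts per Myl3 count. At the lowest of these ratios, the 4 libraries listed at 0 would hold 7, 188, 106 and 51 counts, so their 0 is given as listed and is not read as absence of the transcript. Whether the counting step produced the 0 was not tested.

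**Figure D1:**
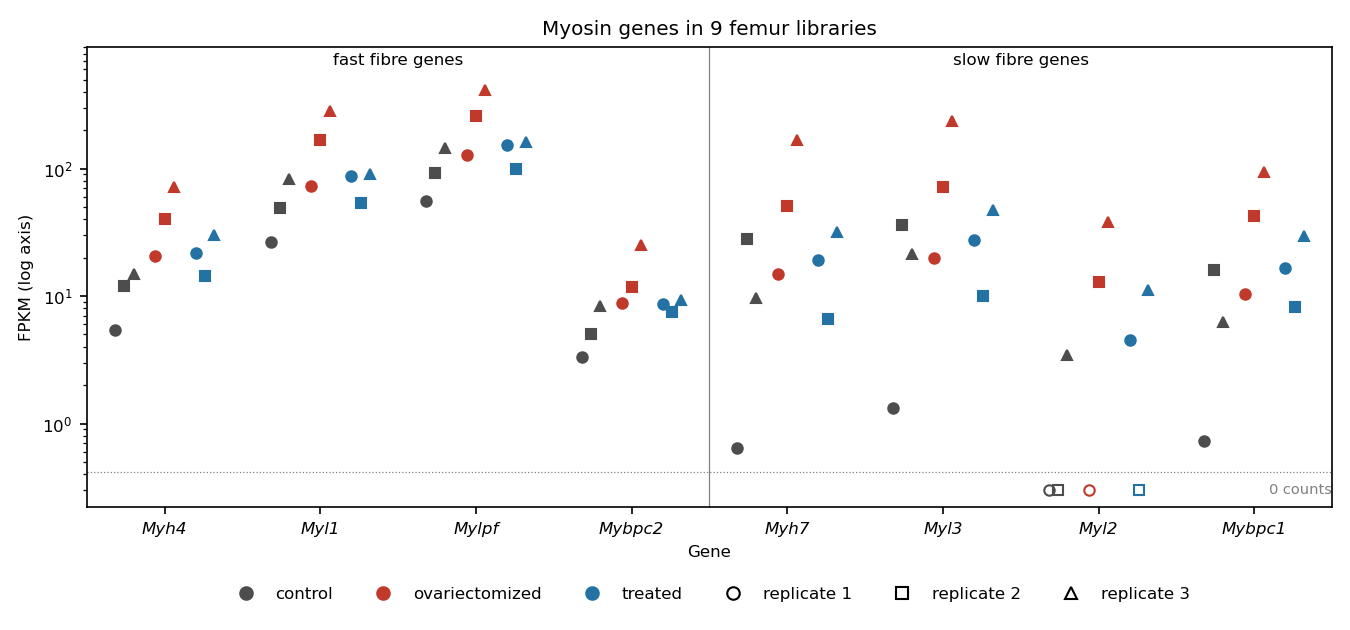
FPKM on a log axis of the 8 measured myosin genes in each of the 9 libraries, with colour for the group and marker shape for the replicate number; open markers below the dotted line are libraries listed at 0 counts. The fast genes on the left span 7.34-fold to 13.1-fold between the lowest and highest library, and Myh7, Myl3 and Mybpc1 on the right span 130-fold to 263-fold.

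By median FPKM over the 9 libraries the order was Mylpf, Myl1, Myl3, Myh4, Myh7, Mybpc1, Mybpc2 and Myl2, with the Myh4 level depending on its long transcript basis. Mylpf was above Myl1, and Myl1 above Myl3, in 9 of 9 libraries. The other neighbours changed places: Myl3 was above Myh4 in 6 of 9 libraries, Myh4 above Myh7 in 5, Myh7 above Mybpc1 in 7, Mybpc1 above Mybpc2 in 7 and Mybpc2 above Myl2 in 6. These neighbouring genes thus have no fixed order across the 9 libraries.

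The slow genes were the more variable set within every group. The SD of log2 FPKM among the 3 controls was 2.69 for Myh7, 2.50 for Myl3 and 2.19 for Mybpc1, against 0.65 to 0.82 for the fast genes. Among ovariectomized libraries the SD was 1.61 to 1.78 for these 3 slow genes and 0.77 to 0.97 for the fast genes. Among treated libraries it was 0.92 to 1.15 and 0.16 to 0.54. The spread of Myl2 is left out of these ranges because of its libraries listed at 0.

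The fast genes varied together from library to library. Over the 9 libraries Pearson's r of log2(FPKM + 0.1) was 0.963 to 0.999 among the 6 pairs of fast genes, 0.686 to 0.995 among the 6 pairs of slow genes and 0.773 to 0.941 among the 16 pairs of a fast with a slow gene. The low end among slow pairs came from pairs with Myl2. These r values describe 9 points that share a library, its depth and its muscle content, and carry no p.

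Ovariectomized rats were set against control rats to see how the femur differs after the ovaries are removed. The estimate for every measured myosin was above 0, in fold terms from 2.67 for Mylpf to 6.12 for Mybpc1 among genes with no library at 0, yet no gene passed the test over all genes. Of the 8, 0 passed an adjusted p under 0.05 in edgeR's quasi-likelihood test and 0 in DESeq2, where 0% and 0.425% of the genes tested passed. All 8 estimates were above 0, as were 48.7% of all genes, and 5 of 8 were higher at an unadjusted p under 0.05 in edgeR, against 3.33% of all genes. Groups did not overlap, with ovariectomized rats higher, for 2 of 8 (Myh4 and Mybpc2), against 5.02% of all genes. The estimate was 1 or more on the log2 scale for 8 of 8, against 2.26% of all genes. The median log2 fold change was 1.55 over the 4 fast genes and 2.58 over the 4 slow genes, beside a median near 0 (-0.0037) over all 13886 genes.

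Among the heavy chains, the Myh4 row went from 10.9 ± 4.91 FPKM in controls to 44.0 ± 25.5 FPKM in ovariectomized rats (SD, n = 3). Its log2 fold change was 1.98 ± 0.51 (SE), with an edgeR adjusted p of 0.892 and a DESeq2 adjusted p of 0.0558. Myh7 went from 12.8 ± 13.9 to 78.5 ± 80.7 FPKM (SD, n = 3), and its log2 fold change of 2.55 ± 1.27 (SE) had an edgeR adjusted p of 0.977. The slow heavy chain thus had the larger estimate and an SE more than 2 times as large. Neither difference passed.

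Among the essential light chains, Myl1 had a log2 fold change of 1.68 ± 0.52 (SE, edgeR adjusted p = 0.892) and Myl3 one of 2.42 ± 1.18 (edgeR adjusted p = 0.974). Among the regulatory light chains, Mylpf was at 1.41 ± 0.45 (edgeR adjusted p = 0.892). The fitted 3.85 ± 2.39 for Myl2 rests on 1 control library with counts. These light chains repeat the contrast of the heavy chains, with a smaller estimate and a smaller error for the fast gene.

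The myosin-binding proteins did so as well. Mybpc2 went from 5.60 ± 2.57 to 15.4 ± 8.76 FPKM (SD, n = 3). Its log2 fold change was 1.42 ± 0.41 (SE), with adjusted p = 0.892 in edgeR and 0.0542 in DESeq2. Mybpc1 went from 7.69 ± 7.78 to 49.3 ± 42.7 FPKM, a log2 fold change of 2.61 ± 1.10 (SE, edgeR adjusted p = 0.974). Both genes were higher in estimate in ovariectomized rats.

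These sizes leaned on 2 libraries. Without ovariectomized replicate 3 the median log2 fold change was 1.07 over the fast and 1.53 over the slow genes, without control replicate 1 it was 1.26 and 2.02, and without both it was 0.78 and 0.97. All 8 estimates stayed above 0 in each case. The summed skeletal muscle markers were highest in the ovariectomized group in the same way, and summed markers of fat cells were 194 to 606 FPKM in controls and 829 to 1110 FPKM in ovariectomized rats. Cartilage markers summed to 95.8 to 319 and 84.2 to 93.6 FPKM, and red cell markers to 123281 to 202352 and 97233 to 117061 FPKM. The part of such tissue differences in the myosin values was not tested.

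**Figure D2:**
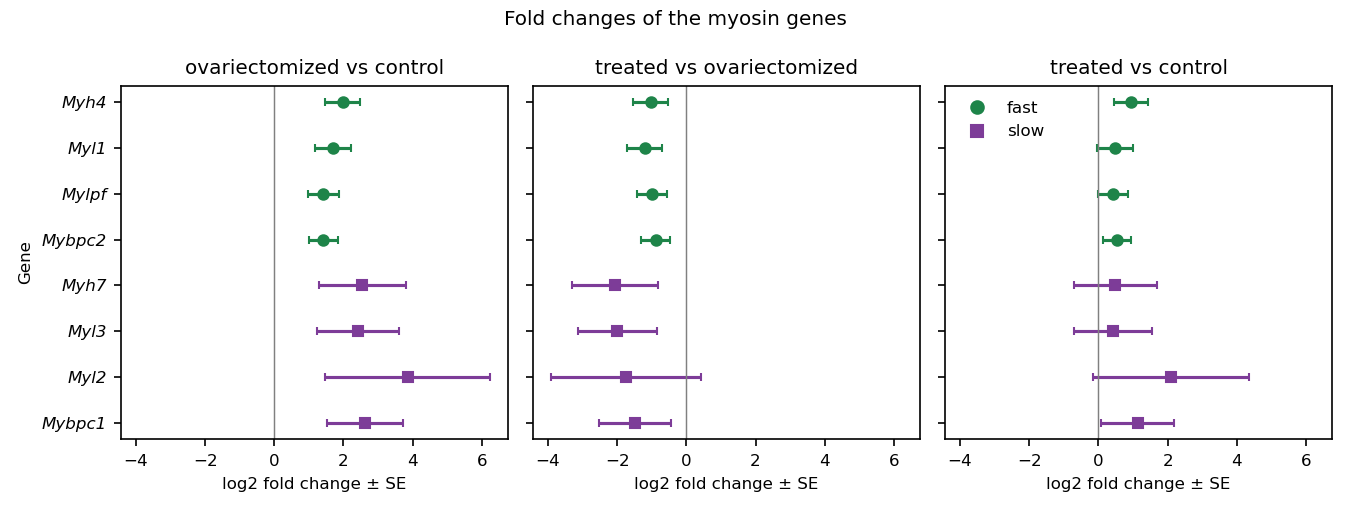
edgeR log2 fold change of each measured myosin gene in 3 comparisons, with bars of 1 SE either side, fast genes as circles and slow genes as squares. All 8 points lie right of 0 for ovariectomized against control rats and left of 0 for treated against ovariectomized rats, with wider bars for the slow genes; none passed an adjusted p under 0.05.

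Treated rats were set against ovariectomized rats to see how the femur differs with the herb. It shares its 3 ovariectomized libraries with the comparison above, so an opposite sign is not independent of it. All 8 estimates were below 0, while 49% of all genes were above 0. Of the 8, 0 passed in edgeR (0% of all genes) and 0 in DESeq2 (0.252%), 1 of 8 (Myl1) was lower at an unadjusted p under 0.05 in edgeR, against 3.08% of all genes, and 0 of 8 had groups without overlap, against 6.63% in that direction. The estimate was -1 or less on the log2 scale for 6 of 8, against 1.62% of all genes. Median log2 fold changes were -1.01 over the fast genes and -1.87 over the slow genes, beside -0.0042 over all genes.

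The Myh4 row was at 22.1 ± 8.02 FPKM in treated rats (SD, n = 3), which is -1.03 ± 0.50 (SE) on the log2 scale against ovariectomized rats. Myh7 was at 19.3 ± 12.6 FPKM (SD, n = 3), or -2.06 ± 1.24 (SE) on the same scale. The edgeR adjusted p was 0.929 and 0.945. Both heavy chains were lower in estimate, and the treated libraries fell inside the range set by the other groups.

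Of the light chains, Myl1 was at -1.20 ± 0.51, Mylpf at -0.99 ± 0.44, Myl3 at -1.99 ± 1.16 and Myl2 at -1.75 ± 2.17 on the log2 scale (SE). The myosin-binding proteins were at -0.89 ± 0.41 for Mybpc2 and -1.48 ± 1.05 for Mybpc1. Each of the slow genes had a larger SE than any fast gene. Without ovariectomized replicate 3 the median over the fast genes was -0.53 and over the slow genes -0.67, with all 8 estimates still below 0.

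Markers of tendon and fibroblasts, tissue that can stay attached to bone with muscle, were also lower in estimate in treated rats. The 7 genes summed to 339 to 470 FPKM in ovariectomized rats and 252 to 319 FPKM in treated rats, without overlap, and to 301 to 463 FPKM in controls. All 7 estimates were below 0 (median -0.53), 3 of 7 had groups without overlap (6.63% of all genes), and DESeq2 passed 1, Thbs4 (0.252% of all genes). Thbs4, a matrix protein of tendon and muscle, was at -1.03 ± 0.26 on the log2 scale (SE), with adjusted p = 0.929 in edgeR and 0.0346 in DESeq2. Marker lists of bone and marrow differed in direction, beside 49% of all genes with an estimate above 0. Red cell markers were lower in estimate for 7 of 7, 5 of them without overlap (6.63% of all genes in that direction). Osteoblast markers were lower for 7 of 8, with a median of -0.17 and none without overlap. Neutrophil markers were higher for 5 of 5 tested and cartilage markers for 6 of 7 tested. Fat cell markers had no common direction, with 4 of 8 higher and a median of 0.016. The summed skeletal muscle markers overlapped between these groups, at 609 to 2951 and 460 to 950 FPKM. The part of attached tissue in the myosin values was not tested.

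Treated against control rats compares the herb group with normal animals. All 8 estimates were above 0, as were 50% of all genes, with medians of 0.50 over the fast and 0.81 over the slow genes. The slow median rests on Myl2, with its libraries listed at 0: over the other 3 slow genes it was 0.48. The median over the 4 slow genes was also 0.26 without control replicate 1, 0.27 without treated replicate 3 and 1.70 without control replicate 2, so slow and fast genes have no settled order in this comparison. The largest among genes with no library at 0 were Mybpc1 at 1.13 ± 1.05 and the Myh4 row at 0.95 ± 0.50 on the log2 scale (SE). Of the 8, 0 passed in edgeR (0% of all genes) or DESeq2 (1.1%), and 0 were higher at an unadjusted p under 0.05 in edgeR, against 4.05% of all genes. Groups did not overlap in 0 of 8, against 6.34% in that direction, and 2 of 8 estimates were 1 or more on the log2 scale, against 1.27%. Without control replicate 1, 6 of 8 estimates were above 0, with Myh7 at -0.075 and Myl3 at -0.12.

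The balance of slow to fast heavy chain was read as the share of Myh7 in the summed counts of Myh4 and Myh7. It was 3.73%, 43.0% and 17.5% in control replicates 1, 2 and 3. The ovariectomized libraries had 19.0%, 29.5% and 43.7%, and the treated libraries 22.5%, 13.1% and 25.5%. Controls held the lowest value and nearly the highest, so their range covered all treated libraries and 2 of 3 ovariectomized ones. The Wilson 95% intervals were 0.498 to 1.22 percentage points wide and cover counting error only, so the libraries differed far beyond it. In FPKM, with the Myh4 row given per 18.9 kb, the Myh7 share was higher in every library. It was 10.6%, 69.8% and 39.3% in controls. The ovariectomized libraries had 41.9%, 56.1% and 70.4%, and the treated libraries 47.1%, 31.6% and 51.2%. The level of the share thus depends on the measure.

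The group means of the count share were 21.4% ± 19.9 in controls, 30.7% ± 12.4 in ovariectomized rats and 20.4% ± 6.48 in treated rats (SD, n = 3). The test used FPKM instead, as the log2 ratio of Myh4 to Myh7. Ovariectomized minus control was -1.15 (2-sided exact permutation p = 0.4, adjusted p = 0.75 over the 6 ratio tests computed, 3 of them for the light chain pair below). Treated minus ovariectomized was 0.78 (exact permutation p = 0.4, adjusted p = 0.75) and treated minus control -0.37 (exact permutation p = 0.8, adjusted p = 0.8). With 3 libraries against 3 the smallest p such a test can give is 0.1. The adjusted p also takes in the 3 light chain tests, which are void as described below. The exact p is therefore the value read here. No difference in heavy chain balance exceeded the spread between libraries.

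The other slow and fast pairs ordered the libraries much as the heavy chains did. The share of Myl3 in the FPKM of Myl1 and Myl3 was 4.79%, 42.4% and 20.6% in controls, 21.4%, 29.8% and 45.9% in ovariectomized rats and 23.7%, 15.8% and 34.4% in treated rats. The share of Mybpc1 in the FPKM of Mybpc1 and Mybpc2 was 17.9%, 76.1% and 42.7%, then 53.8%, 78.2% and 78.9%, then 65.8%, 52.1% and 75.9%. Control replicate 1 was the lowest and ovariectomized replicate 3 the highest in all 3 pairs. For the regulatory light chains, the log2 ratio of Mylpf to Myl2 was 3.43 to 5.33 in the 5 libraries with Myl2 counts. In the 4 libraries listed at 0 the pseudocount of 0.1 set it, at 9.13 to 10.3, so the tests of this ratio between groups are void and nothing is read from them.

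**Figure D3:**
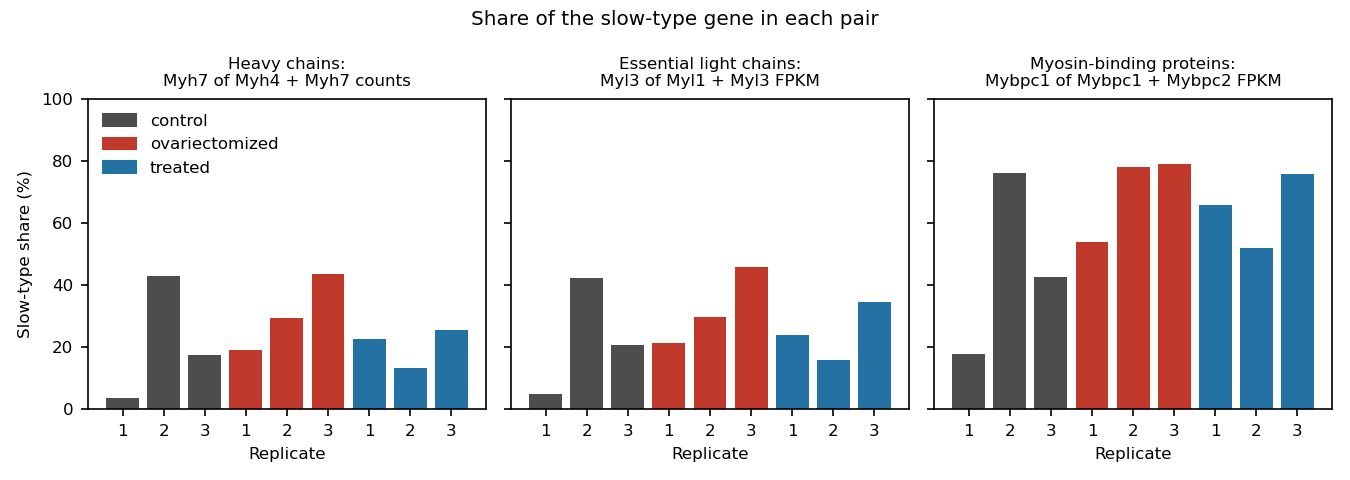
Share of the slow-type gene in each pair, in percent, for the 9 libraries; the left panel uses counts of Myh4 and Myh7, and the other panels use FPKM. Control replicate 1 is lowest in every panel (3.73%, 4.79% and 17.9%) and the bars of the 3 groups overlap.

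A fast minus slow index, the mean log2(FPKM + 0.1) of the 4 fast genes less that of the 4 slow genes, put the whole set on 1 scale. It was 4.57, 1.86 and 2.08 in controls, 3.11, 0.84 and 0.13 in ovariectomized rats and 1.49, 3.33 and 0.77 in treated rats. The index was above 0 in all 9 libraries, and the group means of 2.84 ± 1.51, 1.36 ± 1.56 and 1.86 ± 1.32 (SD, n = 3) lay within about 1 SD of each other. Without Myl2 the index was negative in 2 libraries, -0.14 for control replicate 2 and -0.38 for ovariectomized replicate 3. These signs depend in part on the Myh4 FPKM being given per 18.9 kb, 3.06 times the length implied for Myh7. The group means were then 1.76 ± 1.95 in controls, 0.42 ± 0.85 in ovariectomized rats and 1.01 ± 0.70 in treated rats (SD, n = 3). With Myl2 kept, the ovariectomized minus control difference of -1.48 was 0.0076 when control replicate 1 and ovariectomized replicate 3 were both left out.

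**Figure D4:**
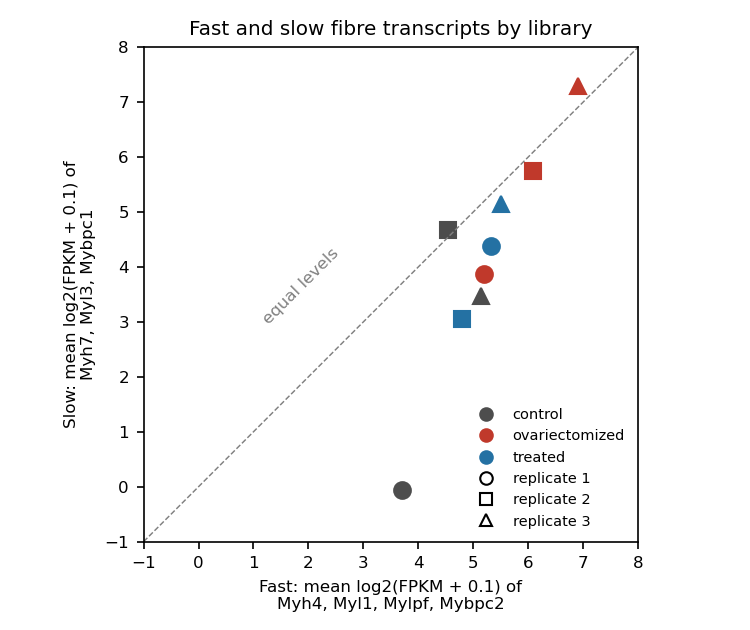
Mean log2(FPKM + 0.1) of the 4 fast genes on the horizontal axis against Myh7, Myl3 and Mybpc1 on the vertical axis, 1 point per library, with a dashed line of equal levels. The points climb more steeply than the line, from control replicate 1 at 3.70 and -0.06 to ovariectomized replicate 3 at 6.91 and 7.29. Which side of the line a point lies on depends in part on the 18.9 kb basis of the Myh4 row.

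Among the other sarcomeric myosins, 8 of 10 listed genes had a row and 3 were abundant enough to test. Myh6 is a fast heavy chain of heart muscle and the neighbour of Myh7 on chromosome 15. It held between 8.01% and 11.1% as many counts as Myh7 in all 9 libraries. The genes are similar in sequence, and whether some of these reads belong to Myh7 was not tested. Myh7b, another slow-type heavy chain, was at 0.735 ± 0.227 FPKM in controls, 1.69 ± 0.630 in ovariectomized rats and 1.28 ± 0.174 in treated rats (SD, n = 3). Neither of the latter groups overlapped controls, as for 5.02% and 6.34% of all genes in that direction. Neither difference passed, with adjusted p of 0.892 and 0.553 in edgeR and 0.0624 and 0.344 in DESeq2. The embryonic Myh3 had 10 to 762 counts and the neonatal Myh8 had 3 to 219 counts, against 6458 to 85830 for the Myh4 row.

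Fast fibre genes outside the thick filament had the direction of the fast myosins. In ovariectomized against control rats 14 of 14 tested had a positive estimate (48.7% of all genes), with a median log2 fold change of 1.64. Of these, edgeR passed 0 and DESeq2 passed 6 (Tnnc2, Actn3, Eno3, Pygm, Myoz1 and Mylk2), against 0.425% of all genes in DESeq2. At an unadjusted p under 0.05, 13 of 14 were higher in edgeR, against 3.33% of all genes. Acta1, the skeletal actin of the thin filament, was at 2.38 ± 0.74, and the muscle creatine kinase Ckm at 1.86 ± 0.55 on the log2 scale (SE). Both are on this list but are made in slow fibres too. The fast troponins Tnnc2 and Tnnt3 were at 1.67 ± 0.51 and 1.61 ± 0.49. In treated against ovariectomized rats 14 of 14 were below 0, with a median of -1.05.

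Mylk2, the kinase of skeletal muscle that phosphorylates the regulatory light chain, had a different size of change from the light chain it acts on. It stayed between 12.7 and 21.3 FPKM over the 9 libraries. Mylpf ran from 56.1 to 412 FPKM and Acta1 from 50.8 to 1515 FPKM, so the Mylk2 row had a much narrower range than these muscle genes. Whether its reads came from muscle fibres was not tested. It was at 14.7 ± 0.698 FPKM in controls, 20.2 ± 0.943 in ovariectomized rats and 14.2 ± 1.46 in treated rats (SD, n = 3). Its log2 fold change was 0.41 ± 0.09 (SE) for ovariectomized against control rats, with adjusted p = 0.892 in edgeR and 0.0244 in DESeq2, and -0.55 ± 0.09 for treated against ovariectomized rats, with adjusted p = 0.581 in edgeR and 0.000269 in DESeq2. Ovariectomized libraries did not overlap either other group.

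Slow fibre genes outside the thick filament had the direction of the slow myosins. In ovariectomized against control rats 12 of 12 had a positive estimate (48.7% of all genes), with a median log2 fold change of 2.40. Of these, edgeR passed 0 and DESeq2 passed 1, the stretch-responsive Ankrd2 (0.425% of all genes). At an unadjusted p under 0.05, 6 of 12 were higher in edgeR, against 3.33% of all genes. Mb, the oxygen store myoglobin, was at 2.46 ± 0.93, and the slow troponins Tnnt1 and Tnnc1 at 2.39 ± 1.01 and 1.98 ± 0.66 on the log2 scale (SE). Tpm3, a tropomyosin that many other cells make too, was at 0.27 ± 0.13. In treated against ovariectomized rats 12 of 12 were below 0, with a median of -1.79.

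Partners and chaperones of the thick filament gave 9 of 9 positive estimates in ovariectomized against control rats (48.7% of all genes), with a median of 1.93. At an unadjusted p under 0.05, in either direction, edgeR called 5.05% of all genes in this comparison. DESeq2 passed 1 (0.425% of all genes), Smyd1, the methyltransferase needed for thick filament assembly. It was at 2.83 ± 0.72 on the log2 scale (SE), with adjusted p = 0.892 in edgeR and 0.0103 in DESeq2. Of this list edgeR passed 0 (5 at an unadjusted p under 0.05). The M-line protein Myom2 was at 1.78 ± 0.70, Trim54 at 2.13 ± 0.71, Smpx at 2.15 ± 1.24 and the binding protein Mybph at 0.18 ± 0.20. In treated against ovariectomized rats 9 of 9 were below 0, with a median of -1.07.

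The myosins of other cells had no common direction. Of 8 tested non-muscle and smooth muscle myosin genes, 4 estimates were above and 4 below 0 in ovariectomized against control rats (median -0.04), and 5 above and 3 below in treated against ovariectomized rats (median 0.05). Myl6, the essential light chain of non-muscle myosin, was at 355 ± 26.7 FPKM in controls, 336 ± 20.2 in ovariectomized rats and 368 ± 21.7 in treated rats (SD, n = 3). The regulatory light chains Myl12a, Myl12b and Myl9 had log2 fold changes of 0.03 ± 0.09, 0.00417 ± 0.145 and -0.25 ± 0.16 (SE) in ovariectomized against control rats. None of the 8 passed in edgeR or DESeq2, and the unadjusted p was under 0.05 for 0 of 8 in edgeR.

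Regulators of muscle differentiation and fibre type differed in level. Of 14 listed genes, 7 were tested, and 5 of these had a positive estimate in ovariectomized against control rats (median 0.24). The satellite cell gene Pax7 had 0 to 12 counts and Myf5 0 to 21 counts. Mef2a was at -0.28 ± 0.07 on the log2 scale (SE), with controls above ovariectomized rats without overlap, as in 3.92% of all genes, and an edgeR adjusted p of 0.892. Nfatc1, which relays calcium signals to slow fibre genes, was at -0.03 ± 0.12 and Mef2c at 0.24 ± 0.22. Mef2a (11.6 to 15.4 FPKM) and Nfatc1 (9.26 to 13.2 FPKM) are also made in other cells of bone and marrow. The muscle-restricted Myf6 and Vgll2, at most 6.21 and 4.23 FPKM, had the largest estimates of the list, 2.61 ± 1.17 and 2.20 ± 1.25 in ovariectomized against control rats and -1.92 ± 1.13 and -1.40 ± 1.22 in treated against ovariectomized rats on the log2 scale (SE). Neither passed in edgeR or DESeq2.

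**Figure D5:**
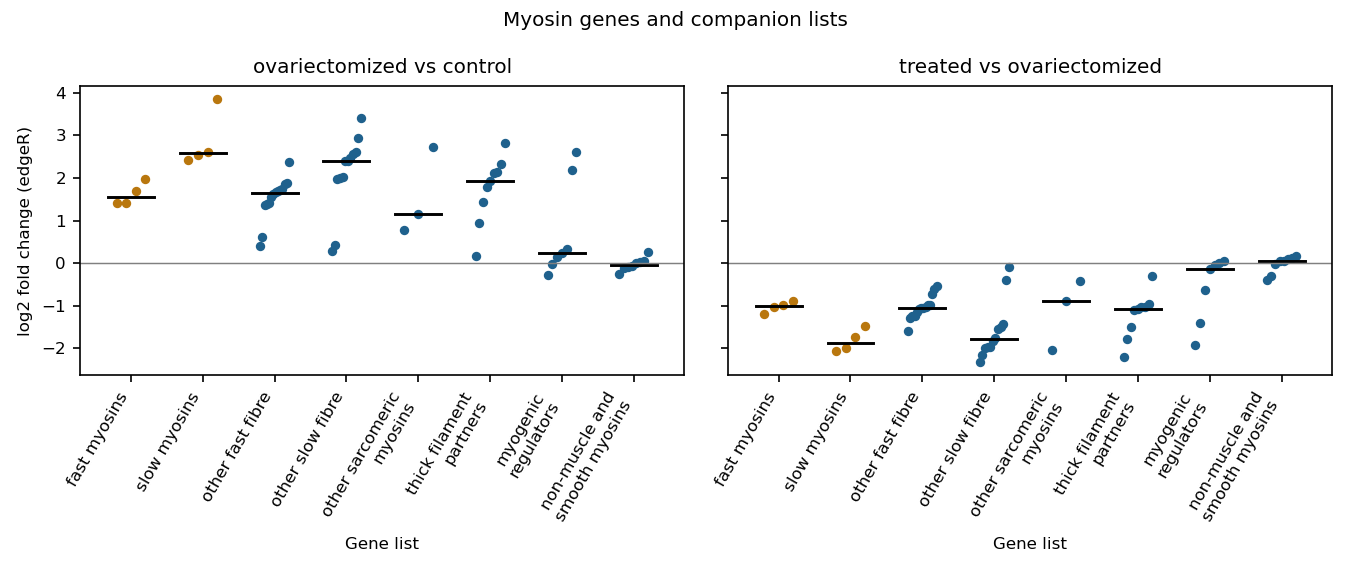
edgeR log2 fold changes of the fast and slow myosins (orange) and of the tested genes of each companion list (blue), 1 point per gene with a black bar at the median, for ovariectomized against control rats (left) and treated against ovariectomized rats (right). The medians of the myosin, fibre and thick filament lists lie above 0 on the left, at 1.14 to 2.58, and below 0 on the right, while the non-muscle myosins sit around 0 in both.

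Outside the named lists, the genes whose log2(FPKM + 0.1) was most like that of Myh4 over the 9 libraries were Lmod3 (Pearson's r = 0.988), Cmya5 (0.986), Ampd1 (0.986), Sgca (0.983) and Eef1a2 (0.981). Those most like Myh7 were Actn2 (r = 0.996), Ckmt2 (0.993), Smtnl1 (0.990), Nrap (0.987) and Lmod2 (0.986). Lmod3 and Lmod2 are leiomodins of the thin filament, Actn2 is the alpha-actinin of the Z disc and Ckmt2 a mitochondrial creatine kinase of muscle. The 2 lists of 5 shared no gene. Across libraries, Lmod3 ran from 0.306 to 7.44 FPKM and Actn2 from 0.642 to 73.1 FPKM, and these r values carry no p.

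Together the 8 myosin rows took 196, 645 and 625 CPM (counts scaled to the library total) in controls, 759, 1752 and 3753 in ovariectomized rats and 875, 517 and 1201 in treated rats. Every ovariectomized library was above every control library on this sum, and treated replicates 1 and 3 were above all controls. The sum is not scaled for length, so the long heavy chain rows weigh heavily in it. In control replicate 1 the Myh4 row gave 6458 of 12298 counts. In ovariectomized replicate 3 the Myh4 row gave 85830 and Myh7 66578 of 238908 counts. Taken singly, 2 of 8 genes had ovariectomized libraries above controls without overlap, and the sum itself was not tested.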

How the data were processed

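Poly(A) RNA from femur was sequenced in 9 libraries, and 1 deposited table gave whole-number counts and FPKM values per gene, per the file headers. The authors used fastp, HISAT2 and StringTie, per the submitters' processing notes, without version numbers, and the sources used here give no genome build. The deposited FPKM values are scaled for transcript length and depth, and read 0.0001 where the deposited count is 0, which was taken as 0 FPKM here. The deposited count values were treated as unscaled read counts.

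The genes and lists were chosen with earlier results of these data known. Where a symbol repeated, the row of highest mean FPKM was used. The 10 myosin genes, up to 4 genes of each companion list with the highest mean FPKM, companion genes passing an adjusted p under 0.05 in any tool, and the 5 genes most like Myh4 and Myh7 were named; Myh8, Pax7, Myf5, Myf6, Vgll2 and the marker genes were named after their values were seen. A gene that the rule names is not reported here. Most genes of the skeletal muscle marker list are also on the fast fibre list.

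Genes averaging 1 FPKM or more were fitted with edgeR 4.0.16 in R 4.3.3 (TMM scaling, a single quasi-likelihood model of the 9 libraries, contrasts between groups), and p-values were adjusted over all 13886 genes by the Benjamini-Hochberg method with a threshold of 0.05. The common biological coefficient of variation was 0.262. The SE is the absolute log2 fold change divided by the square root of the quasi-likelihood F. Group values are means with SD, and overlap of groups was judged on CPM. Ratios of single genes were compared by exact 2-sided permutation tests on log2(FPKM + 0.1). Alternatives were DESeq2 1.42.0, limma 3.58.1 on log2(FPKM + 0.1) or log2(FPKM + 1), median-of-ratios scaling, no filter or a filter at 5 FPKM, only the 2 groups compared, a replicate block, and single libraries left out in turn. Leaving out Myl2 from the slow genes, and control replicate 1 with ovariectomized replicate 3 together, were added after seeing the data. The fit was also run on counts simulated with its own dispersion estimates. The outcome is not given here, and nothing about the power to detect changes is read from it. Promoter windows came from RefSeq (GRCr8) and figures were drawn with matplotlib 3.10.9.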

Additional observations from a re-analysis of the deposited data

How the results depend on the processing

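With edgeR, 0 genes were called in each comparison, and 0 of 8 myosin genes passed under any alternative. DESeq2 called 59 genes for ovariectomized against control rats, 35 for treated against ovariectomized rats and 153 for treated against control rats, none of them a myosin. With only the 2 groups compared, edgeR called 2, 1 and 1 genes. Leaving out 1 library at a time gave 0 to 4, 0 to 2 and 0 to 3 genes; leaving out control replicate 1 and ovariectomized replicate 3 together gave 4, 0 and 2. The cause was not tested. All 8 estimates kept their direction in the first 2 comparisons under every alternative; for treated against control rats 6 to 8 were above 0. Signs changed in treated against control rats for Myh7 (-0.075 to 1.87 with 1 library left out, and -0.075 without those 2 libraries), Myl3 (-0.14 to 1.29, and -0.12) and the Myh4 to Myh7 log2 ratio (-1.36 to 0.69). They also changed in treated against ovariectomized rats for the Mylpf to Myl2 log2 ratio (-1.57 to 2.40, a void test). The fast minus slow difference in that comparison ran from -0.23 to 1.38. Its index holds Myl2, which the pseudocount set in 4 libraries, so no change of balance is read from its sign. Leaving out libraries was not repeated for the index without Myl2. With Myl2 kept, and without control replicate 1 and ovariectomized replicate 3, the fast minus slow difference was 0.0076, -0.11 and -0.11 in the 3 comparisons, against -1.48, 0.50 and -0.97. With the replicate number as a block, 0 genes were called and 8, 0 and 8 estimates were above 0; the median for treated against ovariectomized rats was -0.86 over fast and -1.24 over slow genes, and for treated against control rats 0.65 and 1.61. Deviations of libraries with the same number correlated at -0.13 to 0.17 over 9 pairs, 1 of them above 0.1, and 2 of 9 libraries correlated best with their own number, so the number was not taken as a pairing. Counting precision was lowest for Myl2, which is listed at 0 in 4 libraries of ordinary depth. Counts were also low in control replicate 1 for Myl3 (79 counts), Mybpc1 (191 counts) and Myh7 (250 counts).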
